A study of Mus musculus with 6 samples.

Results

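Genes of DNA replication and mitosis were described in regulatory T cells (Treg cells), the CD4+ lymphocytes that express the transcription factor Foxp3 and restrain immune responses. The set held 43 named genes of the 24453 gene symbols in the deposited table: 19 of mitosis, 11 of DNA replication and 13 of the control of entry into S phase. All 43 were found by symbol, each was represented by its transcript with the highest mean level, and all 43 were among the 13621 genes tested, whose mean over the libraries reached 1 RPKM. RPKM here is reads per kilobase of transcript and per 10000000 counted reads.

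The cells were sorted as CD4+Foxp3+ from healthy female C57BL/6 mice. In 1 group, miR-27 Tg, miR-27a is overexpressed in Treg cells specifically, by the series text, and in the other, WT, the genotype label reads WT Tg. The series title names the mice Foxp3cre het for both groups. Foxp3 lies on the X chromosome, so in a female that carries a Cre allele on 1 X chromosome only cells with that chromosome active express it. Whether the sort selected such cells, how old the mice were, and whether each library is a mouse of its own are points that the labels do not state. The p-values therefore set the group difference against the variation between these libraries, and that variation may be technical.

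Cell division is ordered by cyclins, which bind and activate cyclin-dependent kinases. D-type cyclins with Cdk4 or Cdk6, and then E-type cyclins with Cdk2, release E2F factors from the retinoblastoma protein, and E2F factors switch on the genes of DNA replication. Genes of mitosis are switched on later, through CCAAT boxes and a short element known as the cell cycle genes homology region (CHR), and cyclin B with Cdk1 then starts mitosis. Treg cells include a resting part and an activated part that divides, so in bulk RNA the level of these genes depends on how many cells divide. Fewer dividing cells and less RNA per dividing cell cannot be told apart in bulk samples.

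Promoter sequences are shown for 8 members because they hold the elements by which mitosis and replication genes are known to be switched on in separate phases. RefSeq promoters (GRCm38.p6, 250 bases before to 50 after the start) were found for 35 of the 43 members. The motifs searched, on both strands, were CCAAT, the CHR letters TTTGAA, and the E2F-type letters TTCGCGC or TTGGCGC, the last of which can overlap CCAAT where both share a CCAA. Each window has 30 bases, written in the direction of the gene, with 1 match in capitals. In the 5 mitosis genes, Ccnb2 to Plk1, the capitals are the CHR letters, and in the 3 Mcm genes the E2F-type letters, on either strand. Where a motif occurs more than once, its match nearest to the start is shown, and CCAAT boxes of the same promoters can lie nearer.
Ccnb2 (chr9:70421533-70421562, minus strand): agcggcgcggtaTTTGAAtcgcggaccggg
Cdc20 (chr4:118437344-118437373, minus strand): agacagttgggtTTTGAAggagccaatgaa
Cdk1 (chr10:69352910-69352939, minus strand): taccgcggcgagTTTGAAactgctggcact
Kif11 (chr19:37376351-37376380, plus strand): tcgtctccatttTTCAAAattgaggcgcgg
Plk1 (chr7:122159453-122159482, plus strand): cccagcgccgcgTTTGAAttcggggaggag
Mcm5 (chr8:75109349-75109378, plus strand): caagaactttcGCGCCAAaacgtccagcct
Mcm6 (chr1:128359663-128359692, minus strand): gccggaggcgcGCGCGAAgtggcagcgcgg
Mcm7 (chr5:138171848-138171877, minus strand): ggtgacgacgtTTCGCGCcaatttcggttg

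Counted from the first transcribed base as 0, the capitals began at 4 in Ccnb2, -18 in Cdc20, -15 in Cdk1, -19 in Kif11 and 30 in Plk1, and at -149, 24 and 17 in Mcm5, Mcm6 and Mcm7. The window of Cdc20 also holds a CCAAT box next to its CHR letters. TTTGAA was present in 10 of 15 mitosis promoters (66.7%), 1 of 10 replication promoters and 1 of 10 of S-phase entry, against 12.1% of the 9971 promoters of genes tested. CCAAT was present in 13 of 15 mitosis promoters (86.7%), 8 of 10 replication promoters (80.0%) and 4 of 10 of S-phase entry (40.0%), against 38.5% of all. The E2F-type letters were present in 4 of 15 mitosis promoters (26.7%), 4 of 10 replication promoters (40.0%), all of them Mcm genes, and 0 of 10 of S-phase entry, against 6.97% of all. The median GC content was 57.7% in mitosis promoters, 57.0% in replication promoters, 64.7% in those of S-phase entry and 60.3% in all. These matches describe letters in the window and are not measured binding sites.

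Between miR-27 Tg and WT, 0 of the 43 members passed the test by limma at an adjusted p of 0.05, in either direction, while 1.03% of all genes tested passed it, 0.374% higher and 0.653% lower. At an unadjusted p under 0.05 there were 6 members (14.0%), 3 higher and 3 lower, against a background of 13.0% (4.59% higher and 8.43% lower). The groups did not overlap for 6 members (14.0%), 3 with miR-27 Tg above and 3 below, against 18.5% of all genes tested (6.84% above and 11.6% below). The first share was near its background and the second below it. The median log2 fold change of the 43 members was 0.0032, with 23 above 0 and 20 below, and that of all genes tested was -0.013.

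A change of 2-fold or more lay outside the 95% interval of 42 of the 43 members (97.7%), against 84.0% of all genes tested. These intervals are on the log2(RPKM + 1) scale, which understates changes of low genes. Intervals are per gene and not adjusted for the number of genes. Cdkn1a was the exception. The interval lay within 0.5 of 0 for 30 members (69.8%), against 52.3% of all genes tested.

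**Figure D1:**
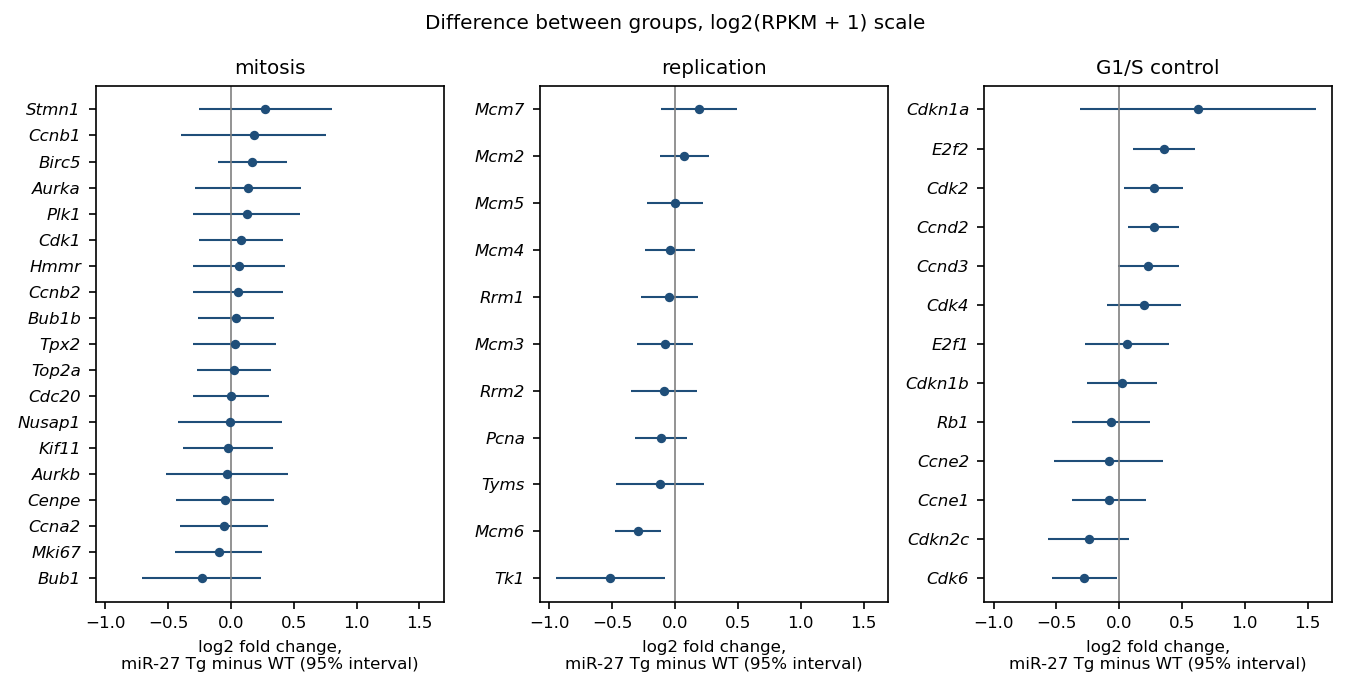
Log2 fold change of each member on the log2(RPKM + 1) scale, miR-27 Tg minus WT, as a point with its 95% interval from limma (3 libraries a group), in panels by role. The points lie between -0.52 (Tk1) and 0.63 (Cdkn1a), and the intervals of Mcm6, Tk1, Ccnd2, Cdk2, Cdk6 and E2f2 leave out 0 before any adjustment.

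Mitosis genes were expressed at similar levels in both groups. Mki67, which encodes the proliferation marker Ki-67 that coats mitotic chromosomes (NM_001081117, mm10 chromosome 7, 135689788 to 135716379, minus strand), had 102, 81.6 and 76.3 RPKM in WT libraries 1 to 3, against 91.9, 81.5 and 69.2 in those of miR-27 Tg. The groups overlapped, with WT replicate 1 above every miR-27 Tg library and miR-27 Tg replicate 3 below every WT library. Its log2 fold change was -0.10 (SE 0.15, 95% interval -0.44 to 0.25, adjusted p = 0.8605 by limma), from 86.7 ± 13.8 to 80.9 ± 11.4 RPKM (SD, n = 3).

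Top2a, the topoisomerase that untangles sister chromatids (NM_011623, chromosome 11, 98992947 to 99024189, minus strand), had 125, 122 and 91.9 RPKM in WT, against 116, 113 and 112 in miR-27 Tg. WT replicate 3 was the low library, and the miR-27 Tg libraries lay inside the WT range. This gave a log2 fold change of 0.023 (SE 0.13, 95% interval -0.27 to 0.32, adjusted p = 0.968).

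Cdk1, the kinase that starts mitosis (NM_007659, chromosome 10, 69336635 to 69352912, minus strand), had 21.4, 19.9 and 17.5 RPKM in WT, against 22.5, 19.1 and 20.7 in miR-27 Tg. Its log2 fold change was 0.080 (SE 0.14, 95% interval -0.25 to 0.41, adjusted p = 0.886). Its partner cyclins differed widely in level from each other but not beyond their spread between groups. Ccnb2 had 39.7 ± 4.77 and 41.5 ± 6.42 RPKM (WT, then miR-27 Tg). Ccnb1 (NM_172301, chromosome 13, 100778739 to 100786486, minus strand) had 5.05, 4.63 and 2.99 RPKM in WT, against 3.87, 6.05 and 4.79 in miR-27 Tg. These rest on 26 to 49 reads per library, the fewest of any member. An annotated pseudogene carries the name of Ccnb1, and another that of Ccnb2. Reads that fit several places therefore make the levels of both genes uncertain. The log2 fold change of Ccnb1 was 0.18 (SE 0.25, 95% interval -0.39 to 0.76, adjusted p = 0.840).

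Of the 19 mitosis genes 0 passed the test, 0 had an unadjusted p under 0.05 and the groups overlapped for all 19. Their median log2 fold change was 0.029, with 12 above 0 and 7 below. The lowest value was that of Bub1, a kinase of the spindle checkpoint (-0.23, from 11.7 ± 2.96 to 9.59 ± 0.197 RPKM, adjusted p = 0.718). The highest was that of Stmn1, which destabilises microtubules (0.27, from 14.2 ± 2.16 to 17.7 ± 5.56 RPKM, adjusted p = 0.700), where miR-27 Tg replicate 1 alone lay above the WT libraries, at 23.9 RPKM, with 15.99 and 13.2 in the other two. Birc5, the survivin subunit of the chromosomal passenger complex, had 56.3 ± 4.99 and 63.5 ± 5.57 RPKM (0.17, adjusted p = 0.628). Its kinase partner Aurkb had 26.1 ± 5.45 and 25.6 ± 5.60 RPKM (-0.029, adjusted p = 0.978).

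For the other mitosis genes the groups also overlapped. Aurka, the spindle pole kinase, had 22.8 ± 2.82 and 25.3 ± 5.02 RPKM (WT, then miR-27 Tg), and Plk1, a mitotic kinase, 20.3 ± 4.26 and 21.9 ± 2.11. Kif11, the motor that separates the spindle poles, had 36.2 ± 6.82 and 35.3 ± 1.11 RPKM, and Tpx2, which activates Aurka, 23.6 ± 1.79 and 24.1 ± 2.87. Nusap1, Cenpe and Hmmr, a spindle protein, a kinetochore motor and a microtubule-binding protein, had log2 fold changes of -0.010, -0.045 and 0.066. Bub1b, a checkpoint protein, and Cdc20, which activates the ligase that ends mitosis, had 0.038 and 0.0032. Ccna2, the cyclin of S phase and G2, had 59.3 ± 10.8 and 56.5 ± 3.83 RPKM (-0.054).

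**Figure D2:**
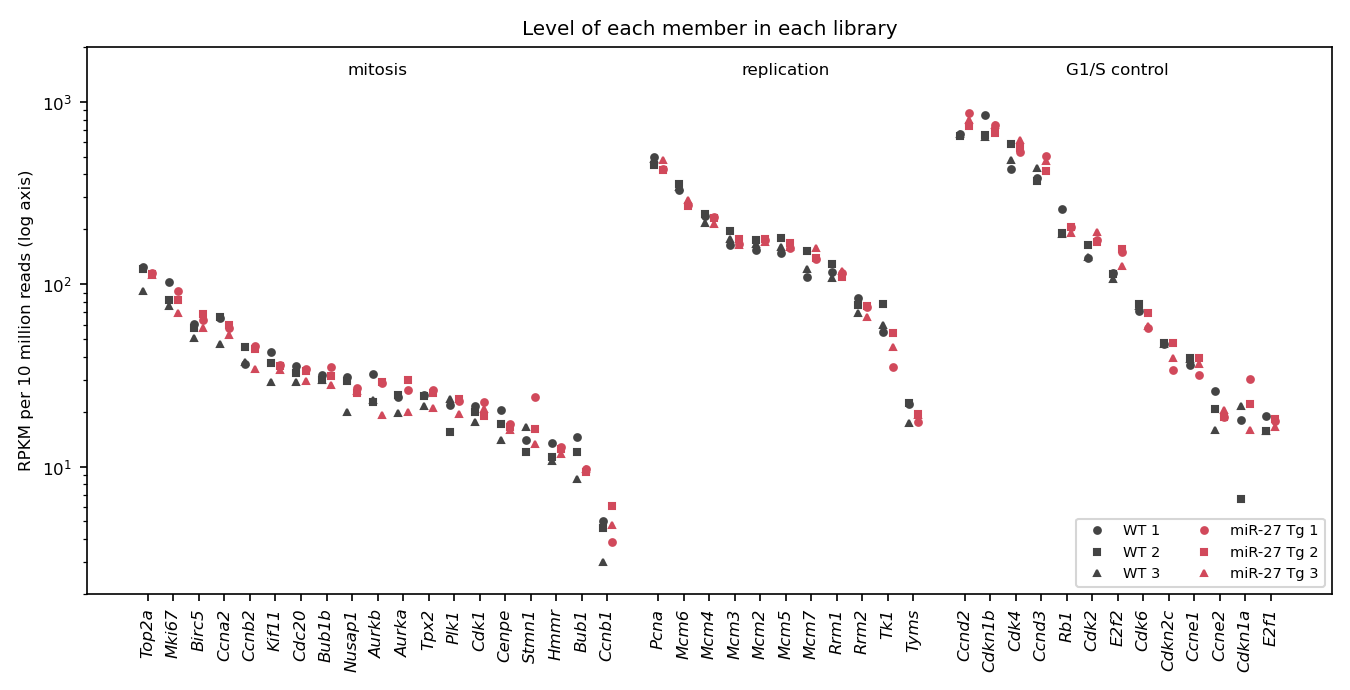
RPKM per 10000000 reads (log axis) of each member in each library, with members ordered by mean level within their role, WT libraries in grey and miR-27 Tg in red, and marker shapes for replicates 1 to 3. Mean levels run from 4.56 (Ccnb1) to 113 (Top2a) for mitosis, 19.6 (Tyms) to 461 (Pcna) for replication and 17.1 (E2f1) to 732 (Ccnd2) for S-phase entry.

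Libraries of 1 group differed in the mitosis genes. WT replicate 3 was the lowest library for 12 of the 19 and miR-27 Tg replicate 3 for 5, and WT replicate 1 was the highest for 9 and miR-27 Tg replicate 1 for 5. The mean log2(RPKM + 1) level of the 19 genes was 4.93, 4.79 and 4.61 in WT libraries 1 to 3, against 4.90, 4.87 and 4.68 in those of miR-27 Tg. Their median log2 fold change was -0.033 when WT replicate 3 was left out, and also -0.033 when replicate 1 of miR-27 Tg was. Levels summed over the 19 genes were 652 ± 76.9 RPKM in WT, against 660.3 ± 54.5 in miR-27 Tg (SD, n = 3). The replication genes did not have the same order: WT replicate 2 was the highest library for 7 of 11, and their mean log2 level was 7.05, 7.20 and 7.02 in WT, against 6.95, 7.03 and 7.01 in miR-27 Tg.

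Transcripts of granule enzymes of immature neutrophils were read mainly in the libraries numbered 1 of both groups. Mpo had 50, 0 and 1 reads in WT, against 48, 2 and 1 in miR-27 Tg, and Elane had 13, 0 and 0 reads and 18, 1 and 2. Ctsg had 7 reads in each library numbered 1 and 0 in the others. Those libraries also had the highest mean mitosis level of their group, and the part of these transcripts in that order was not tested.

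**Figure D3:**
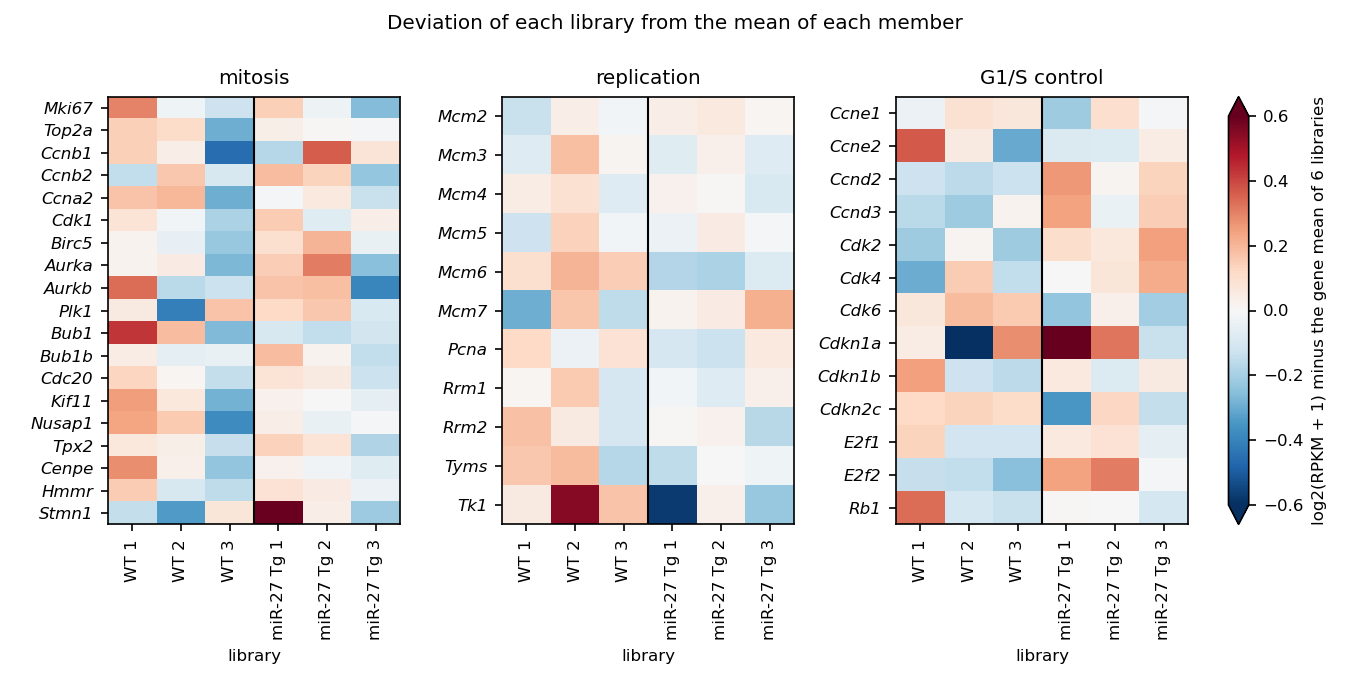
Log2(RPKM + 1) of each member in each library minus its mean over the 6 libraries, in panels by role, with red above and blue below the mean and colours saturated beyond 0.6, and a line between the groups. The WT replicate 3 column is blue for most mitosis genes, while Mcm6 and Ccnd2 change colour at the line.

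Of the 11 DNA replication genes 0 passed the test, and most had levels per kilobase above those of the mitosis genes. Mcm2 to Mcm7 encode the subunits of the hexameric helicase that unwinds DNA. Mcm6 (NM_008567, chromosome 1, 128331575 to 128359705, minus strand) had 328, 354 and 340.4 RPKM in WT, against 272, 269.8 and 290.4 in miR-27 Tg. Every miR-27 Tg library lay below every WT library. Its log2 fold change was -0.30 (SE 0.080, 95% interval -0.48 to -0.11, unadjusted p = 0.00612, adjusted p = 0.156 by limma), the smallest unadjusted p of the 43 members, and over the alternatives the adjusted p was 0.0913 to 0.3696.

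For the other helicase subunits the groups overlapped. Mcm2 (NM_008564, chromosome 6, 88883474 to 88898780, minus strand) had 154, 174 and 167 RPKM in WT, against 174, 177 and 171 in miR-27 Tg (log2 fold change 0.075, SE 0.085, 95% interval -0.12 to 0.27, adjusted p = 0.794). Mcm3, Mcm4 and Mcm5 had log2 fold changes of -0.080, -0.038 and 0.0014, with SE of 0.096, 0.086 and 0.096. Mcm7 had 128 ± 21.6 and 145 ± 10.9 RPKM (0.19, adjusted p = 0.628), and 12.6% of its annotated exonic bases are shared with neighbours, among them Ap4m1 and Cops6 on the opposite strand. Whether the difference of Mcm6 departs from that of its partner subunits was not tested.

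Tk1, thymidine kinase, which salvages thymidine for DNA synthesis (NM_009387, chromosome 11, 117815519 to 117826014, minus strand), had 54.9, 77.8 and 59.7 RPKM in WT, against 35.1, 54.0 and 45.1 in miR-27 Tg. The groups did not overlap, but the lowest WT library and the highest miR-27 Tg library differed by under 1 RPKM. The log2 fold change was -0.52 (SE 0.19, 95% interval -0.95 to -0.079, unadjusted p = 0.0261, adjusted p = 0.294, and 0.0713 to 0.566 over the alternatives).

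Tyms, thymidylate synthase, which makes the same nucleotide by the other route, had 22.0, 22.4 and 17.2 RPKM in WT, against 17.5, 19.5 and 19.2 in miR-27 Tg (log2 fold change -0.12, SE 0.15, 95% interval -0.47 to 0.23, adjusted p = 0.820). The transcript with the highest mean for Tyms is listed as NR_033402, a non-coding accession, and the coding one, NM_021288, had means of 20.5 and 18.7 RPKM (WT, then miR-27 Tg). Tyms also has 1 annotated pseudogene of its name. Rrm1 and Rrm2, the subunits of ribonucleotide reductase, had log2 fold changes of -0.045 and -0.088. Pcna, the sliding clamp of DNA polymerase (NM_011045, chromosome 2, 132249286 to 132253180, minus strand), had 499.6, 449.5 and 488 RPKM in WT, against 429, 421 and 479.9 in miR-27 Tg (-0.11, SE 0.090, 95% interval -0.32 to 0.095, adjusted p = 0.677), and 2 annotated pseudogenes carry its name.

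The median log2 fold change of the 11 replication genes was -0.080, with 3 above 0 and 8 below. Summed, their levels were 1919.9, 2056 and 1924 RPKM in WT, against 1809.7, 1842 and 1888 in miR-27 Tg, which did not overlap. Without Mcm6 the sums were 1592, 1702 and 1584 in WT, against 1538, 1572 and 1597 in miR-27 Tg, which overlapped. The mean log2(RPKM + 1) level of all 11 genes, in which each gene has equal weight, overlapped too. It was 7.02 in WT replicate 3 and 7.03 in miR-27 Tg replicate 2.

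Of the 13 genes that control entry into S phase 0 passed the test. At an unadjusted p under 0.05 there were 4 (30.8%), 3 higher and 1 lower, against 13.0% of all genes tested. Ccnd2, the D-type cyclin with the highest level here (NM_009829, chromosome 6, 127125709 to 127151048, minus strand), had 668, 653 and 665 RPKM in WT, against 871, 737 and 799 in miR-27 Tg. All 3 miR-27 Tg libraries lay above the narrow WT range. This gave a log2 fold change of 0.27 (SE 0.089, 95% interval 0.068 to 0.48, unadjusted p = 0.0154, adjusted p = 0.235 by limma, and 0.186 to 0.504 over the alternatives), and antisense genes share 7.86% of its exonic bases.

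Ccnd3, the other D-type cyclin of T cells (NM_001081635, chromosome 17, 47505051 to 47599688, plus strand), had 384, 371 and 436 RPKM in WT, against 507, 418 and 476 in miR-27 Tg. The groups overlapped, since miR-27 Tg replicate 2 lay below WT replicate 3. Its log2 fold change was 0.23 (SE 0.11, 95% interval -0.012 to 0.48, adjusted p = 0.414). For Ccnd3, 1 annotated pseudogene carries its name.

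The kinases that D-type cyclins activate pointed in different directions. Cdk6 (NM_009873, chromosome 5, 3343893 to 3531005, plus strand) had 71.3, 77.8 and 75.9 RPKM in WT, against 57.6, 69.5 and 58.7 in miR-27 Tg, with no overlap (log2 fold change -0.28, SE 0.11, 95% interval -0.53 to -0.020, unadjusted p = 0.0380, adjusted p = 0.33995, and 0.233 to 0.626 over the alternatives). Cdk4 had 431, 589 and 477 RPKM in WT, against 529, 558 and 619 in miR-27 Tg, with overlap (0.20, SE 0.13, adjusted p = 0.606). Tspan31 on the opposite strand shares 19.7% of the exonic bases of Cdk4, the largest share among the members. Per kilobase, the level of Cdk4 was 7.80 times that of Cdk6 over the 6 libraries.

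Cdk2, the kinase of E-type and A-type cyclins (NM_016756, chromosome 10, 128697939 to 128705051, minus strand), had 140.1, 164 and 140.3 RPKM in WT, against 175, 169.97 and 193 in miR-27 Tg. The groups did not overlap (log2 fold change 0.27, SE 0.10, 95% interval 0.040 to 0.51, unadjusted p = 0.0272, adjusted p = 0.297, and 0.177 to 0.539 over the alternatives). Its partners Ccne1 and Ccne2 had log2 fold changes of -0.083 and -0.083 (adjusted p = 0.861 and 0.917). Ints8 on the opposite strand shares 17.4% of the exonic bases of Ccne2.

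E2f2, an activating E2F factor (NM_001305399, chromosome 4, 136180782 to 136196056, plus strand), had 115, 114 and 106 RPKM in WT, against 149.8, 157 and 126 in miR-27 Tg. Every miR-27 Tg library lay above every WT library. The log2 fold change was 0.36 (SE 0.11, 95% interval 0.11 to 0.61, unadjusted p = 0.0107, adjusted p = 0.204 by limma, and 0.0946 to 0.442 over the alternatives). E2f1, the related activator, had 16.8 ± 1.81 and 17.5 ± 0.911 RPKM (0.060, adjusted p = 0.924). Summed over the 13 genes, levels were 3065, 2947 and 2871 RPKM in WT, against 3373, 3138 and 3336 in miR-27 Tg, which did not overlap, and their median log2 fold change was 0.060. Without Ccnd2 the sums were 2398, 2294 and 2206 in WT, against 2502, 2401 and 2537 in miR-27 Tg, which did not overlap either. These sums add genes that drive entry to genes that hold it back, such as Cdkn1b and Rb1. A higher sum therefore has no direction for entry into S phase. The mean log2(RPKM + 1) level of all 13 genes, in which each gene has equal weight, did overlap, with 6.83, 6.69 and 6.74 in WT libraries 1 to 3, against 6.87, 6.87 and 6.82 in those of miR-27 Tg. Rb1, the retinoblastoma protein that holds E2F factors back, had 213 ± 40.7 and 201 ± 8.72 RPKM (-0.065, adjusted p = 0.904).

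**Figure D4:**
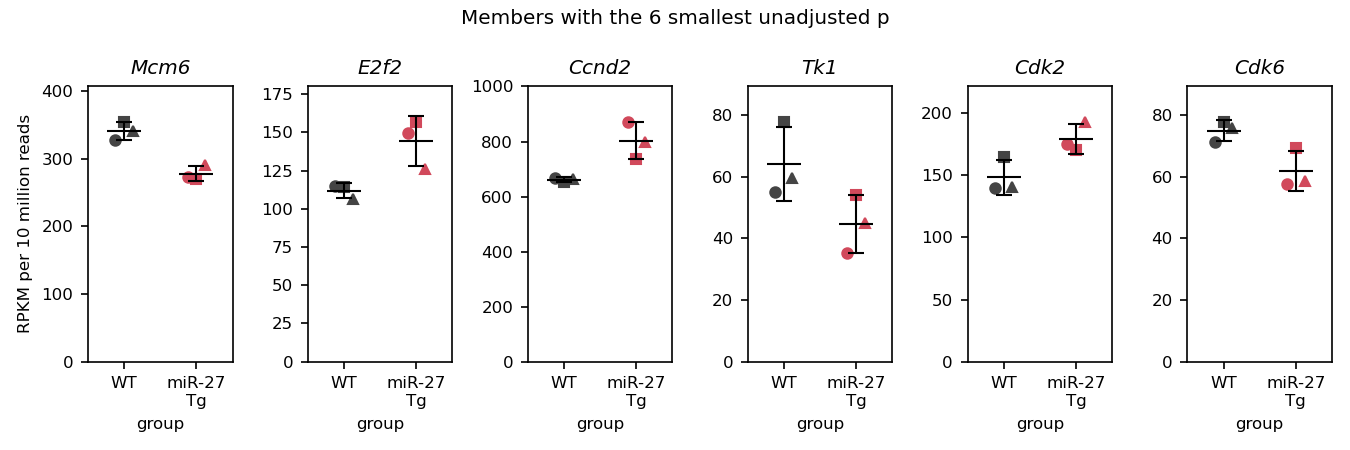
RPKM per 10000000 reads (linear axes from 0) of the members with the 6 smallest unadjusted p, with a point for each library, marker shapes for replicates 1 to 3, and the mean and SD of each group as bars. In each panel the 3 miR-27 Tg points lie all above (E2f2, Ccnd2, Cdk2) or all below (Mcm6, Tk1, Cdk6) the WT points, and 0 of these genes passed the adjusted threshold.

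Inhibitors of cyclin-dependent kinases differed in how tightly they were measured. Cdkn1b, which encodes p27 and holds T cells at rest (NM_009875, chromosome 6, 134920401 to 134925525, plus strand), had 849.9, 657 and 643 RPKM in WT, against 745, 678 and 745 in miR-27 Tg. WT replicate 1 was the highest library and the groups overlapped (log2 fold change 0.022, SE 0.12, 95% interval -0.26 to 0.30, adjusted p = 0.968). Cdkn1a, which encodes the p53 target p21 (NM_007669, chromosome 17, 29093769 to 29100722, plus strand), had 18.1, 6.66 and 21.4 RPKM in WT, against 30.1, 22.1 and 15.8 in miR-27 Tg. WT replicate 2 was the low library (log2 fold change 0.63, SE 0.41, 95% interval -0.31 to 1.57, adjusted p = 0.606), and these levels rest on 50 to 219 reads. Without WT replicate 2 the log2 fold change of Cdkn1a was 0.15. Cdkn2c, an inhibitor of Cdk4 and Cdk6, had 47.2, 47.7 and 47.0 RPKM in WT, against 33.8, 47.4 and 39.3 in miR-27 Tg (-0.24, adjusted p = 0.550).

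Further genes of the same processes were also counted. Of 138 listed, 136 were in the table and 135 were tested, and 0 passed in either direction by limma, with 3 (2.22%) at an unadjusted p under 0.05 against the background of 13.0%. The groups did not overlap for 13 of them (9.63%, against 18.5% of all genes tested). Their median log2 fold changes were -0.017 for 57 mitosis genes, -0.080 for 49 replication genes and 0.017 for 29 genes of S-phase entry.

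Among these, Rbl2, the retinoblastoma relative p130 that represses E2F targets in resting cells, came closest to the threshold. It had 317, 320.02 and 311 RPKM in WT, against 242, 255 and 224 in miR-27 Tg, with every miR-27 Tg library below every WT library (log2 fold change -0.39, SE 0.083, 95% interval -0.59 to -0.20, unadjusted p = 0.00145, adjusted p = 0.0845, and 0.0685 to 0.213 over the alternatives). Ccng1, a p53-induced cyclin, had 328 ± 23.3 and 246 ± 32.8 RPKM (-0.42, adjusted p = 0.164), and Tfdp2, a DNA-binding partner of E2F factors, 38.8 ± 1.38 and 33.1 ± 0.415 (-0.22, adjusted p = 0.452).

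The mitosis genes with the smallest unadjusted p were Sgol1, the shugoshin that protects cohesin, at 10.52 ± 2.30 and 15.0 ± 0.692 RPKM (0.49, adjusted p = 0.300), Racgap1, which acts in cytokinesis, at 51.3 ± 3.71 and 41.7 ± 5.79 (-0.30, adjusted p = 0.397), and Ube2s, a ubiquitin-conjugating enzyme, at 21.5 ± 2.72 and 17.1 ± 0.607 (-0.31, adjusted p = 0.437). Among replication genes they were Rpa3, of the single-strand binding complex (-0.27, adjusted p = 0.408), Orc5, of the origin recognition complex (-0.22, adjusted p = 0.427), and Dna2, a nuclease and helicase (0.36, adjusted p = 0.465).

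Matches to the miR-27 seed were searched because that microRNA is what the groups differ by. MicroRNAs repress messenger RNAs through matches to bases 2 to 8, the seed, here in capitals in the RefSeq sequence (GRCm38.p6, chr8:84208727-84208747, plus strand).
miR-27a-3p: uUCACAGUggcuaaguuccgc

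Of the 43 members, all with an annotated 3′ UTR, 6 held the matching letters ACTGTGA (14.0%), against 17.2% of the 11816 genes tested with an annotated 3′ UTR. The median length of those UTRs was 914 bases for the members and 1140.5 for all. Of the members with a match 3 were mitosis genes, 3 were replication genes and 0 belonged to S-phase entry. The windows below are 30 bases of the 3′ UTR of the longest GENCODE M21 transcript (GRCm38), with the match in capitals.
Cdk1 (chr10:69336088-69336117, minus strand): aaccccagcggACTGTGAcaagctctcacc
Aurka (chr2:172356750-172356779, minus strand): gccaccgtgcaACTGTGAgaaacaccctat
Nusap1 (chr2:119649760-119649789, plus strand): taaaaattttcACTGTGAtaggttcattgt
Mcm4 (chr16:15624261-15624290, minus strand): gtacatcctttACTGTGAtatgatgggcta
Mcm6 (chr1:128332913-128332942, minus strand): cattgtgtctcACTGTGAagcccacactgg
Rrm2 (chr12:24713940-24713969, plus strand): tgaggtagtttACTGTGAtctagcttcctc

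The log2 fold changes of these 6 were 0.080, 0.13, -0.010, -0.038, -0.30 and -0.088, in the order printed. The Cdk1 transcript in the deposited table (NM_007659) ends at 69336635, short of the window printed for Cdk1, so its value is that of a transcript without this match. The median of the 6 was -0.024, and that of the other 37 members 0.022, while over all genes tested it was -0.064 with a match and 0.0011 without. Mcm6 was the member with a match that differed most between groups, and its match begins at base 550 of a 3′ UTR of 1888 bases. The Mcm6 transcript used for its level has 2947 bases, and whether it holds this match was not checked. A longer Mcm6 transcript of 4413 bases had means of 238 and 193 RPKM (WT, then miR-27 Tg), against 341 and 277 for the one used. The level per kilobase was thus lower over the longer transcript, and the level of the stretch with the match was not measured. A match is not a measured target site.

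WT libraries held about 37700000 to 42100000 counted reads and miR-27 Tg libraries about 34400000 to 38100000, and members had from 26 reads (Ccnb1) to 19121 reads (Ccnd2) per library. Cd4 had 1864 to 2293 RPKM and Foxp3 662 to 955 in the 6 libraries, and of 9 Treg markers tested 0 passed, with 3 above 0 and 6 below and a median log2 fold change of -0.19. Their summed level was 16083 to 17477 RPKM in WT, against 13572 to 15138 in miR-27 Tg, without overlap, and 3 had an unadjusted p under 0.05, all lower: Ctla4 (-0.56, adjusted p = 0.0868), Ikzf2 (-0.51, adjusted p = 0.2896) and Izumo1r (-0.32, adjusted p = 0.321). Of 16 myeloid markers listed, 15 were in the table by symbol and 12 were tested, and 1 passed the threshold (Itgam, higher). All 12 lay above 0, with a median log2 fold change of 1.01. At an unadjusted p under 0.05 there were 9 (75.0%), all higher, against 13.0% of all genes tested. The summed level over the 15 was 170 to 404 RPKM in WT, against 424 to 1000.3 in miR-27 Tg. Of 10 B and plasma cell markers tested 0 passed, with sums over 11 of 467 to 532 and 486 to 617 RPKM. Among CD8 T cell and NK cell markers 6 were tested, 0 rose and 1 fell (Nkg7), with sums over 8 of 196 to 259.6 and 178 to 292 RPKM, and of 5 erythroid markers 0 passed, with sums over 8 of 15.8 to 68.8 and 8.48 to 49.9 RPKM. Of 6 thymocyte markers Rag2 was listed at 0 in every library and Rag1 had 0 to 5 reads, while Dntt had 6.24, 11.99 and 15.0 RPKM in WT, against 24.0, 48.3 and 31.9 in miR-27 Tg (adjusted p = 0.0871). The part of other cells in the levels of the members was not tested.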

How the data were processed

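RNA-seq of 3 WT and 3 miR-27 Tg libraries of sorted Treg cells was used. Libraries were made from total RNA with a TruSeq kit, per the labels' protocols. Per the submitters' processing notes, the tools were STAR 2.2.0c and HOMER and the builds mm10 and GRCm38. The authors deposited RPKM values, which HOMER wrote from reads in exons on both strands with library totals of 10000000, per the file headers. Reads of overlapping genes on opposite strands therefore cannot be told apart. The handling of reads that map to several places is not stated there.

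For each symbol the transcript with the highest mean RPKM was kept. Genes with a mean of at least 1 entered limma 3.58.1 (R 4.3.3) as log2(RPKM + 1), in a two-sided test with an intensity trend. The p-values of all 13621 genes were adjusted by Benjamini-Hochberg, with a threshold of 0.05. The fit was tested on simulated data. No count model was fitted to the RPKM. Read numbers were recovered from the step between low values, of which 100% gave whole reads with a tolerance of 0.1. Exon overlap and 3′ UTRs come from GENCODE M21. Pseudogenes were counted by name in a separate list of gene names, as the symbol followed by -ps. Pseudogenes under other names were therefore not counted. Values given in full are those of the 6 members with the smallest unadjusted p and of Mki67, Top2a, Ccnb1, Cdk1, Mcm2, Pcna, Tyms, Ccnd2, Ccnd3, Cdk6, Cdkn1a and Cdkn1b, and of the further lists the 3 genes with the smallest p are named. The members and lists were chosen with earlier results of these data known. The 15 alternatives covered pseudocounts of 0.1 and 5, no filter and a minimum of 5, median-ratio scaling, the longest transcript, no trend, array weights, a replicate block and leaving out each library.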

Additional observations from a re-analysis of the deposited data

How the results depend on the processing

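Under each of the 15 alternatives 0 members and 0 further genes passed the threshold, with adjusted p of at least 0.0713 and 0.0685. The 140 genes called in all became 48 with no filter, 225 with array weights and 276 with a replicate block, and 5 to 67 with 1 library left out (11, 67 and 29 without WT replicates 1, 2 and 3, and 47, 56 and 5 without those of miR-27 Tg). Equal replicate numbers do not pair the libraries by the labels, and deviations of same-numbered libraries correlated at 0.37, 0.097 and 0.037. WT replicates 2 and 3 did not correlate best with their own number. The median log2 fold change of genes of S-phase entry was 0.018 to 0.14 with 1 library left out, that of mitosis genes -0.033 to 0.10 and that of replication genes -0.099 to -0.011. Of 644 member values under alternatives 599 kept their direction and 45, of 20 members, changed sign, all from an absolute log2 fold change of at most 0.18. With array weights the values were 0.075 for Ccna2, 0.046 for Aurkb, 0.066 for Kif11, 0.093 for Nusap1, 0.023 for Cenpe and 0.0032 for Mcm4, and with median-ratio scaling 0.0016 for Aurkb, 0.010 for Kif11 and 0.020 for Nusap1. With 1 library left out they ran from -0.19 to 0.026 for Mki67, -0.12 to 0.10 for Top2a, -0.00079 to 0.31 for Ccnb1, -0.021 to 0.19 for Ccnb2 and -0.21 to 0.032 for Ccna2. They ran from -0.13 to 0.16 for Aurkb, -0.049 to 0.24 for Plk1, -0.044 to 0.12 for Bub1b, -0.067 to 0.068 for Cdc20 and -0.17 to 0.10 for Kif11. The ranges were -0.20 to 0.11 for Nusap1, -0.034 to 0.13 for Tpx2, -0.18 to 0.082 for Cenpe, -0.060 to 0.072 for Mcm5 and -0.11 to 0.022 for Rrm1. The last were -0.15 to 0.0039 for Ccne1, -0.25 to 0.081 for Ccne2, -0.050 to 0.15 for Cdkn1b and -0.15 to 0.086 for Rb1. The cause was not tested.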

Other observations

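Ccnd1, the third D-type cyclin, which T cells express little, was chosen after its values were seen. It had 6.59, 11.3 and 14.8 RPKM in WT libraries 1 to 3, against 8.59, 42.9 and 19.9 in those of miR-27 Tg (log2 fold change 0.86, SE 0.52, 95% interval -0.33 to 2.05, adjusted p = 0.569 by limma). Itgax, the integrin chain CD11c of dendritic cells and macrophages, had 4.29, 11.3 and 16.02 RPKM in WT, against 8.81, 40.7 and 14.4 in miR-27 Tg. Both were highest in miR-27 Tg replicate 2 and lowest in WT replicate 1. So were Dntt, Cd8b1 and Mzb1, listed as markers of thymocytes, CD8 T cells and plasma cells. From that lowest to that highest library, Dntt ran from 6.24 to 48.3 RPKM, Cd8b1 from 60.3 to 169.5 and Mzb1 from 7.13 to 28.4. Other myeloid markers did not share this order. Csf1r, Lyz2, Cd68, Itgam and Fcgr3 were also highest in miR-27 Tg replicate 2, but lowest in WT replicate 2. Adgre1 and Lyz1 were lowest in WT replicate 2 and highest in miR-27 Tg replicate 3. The part of other cells in the level of Ccnd1 was not tested.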
